A study of Mus musculus with 2 samples.

Results

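CD8 T cells are described here as they were found among CD31+ cells of the mouse mesentery. They were chosen barcode by barcode from unique molecular identifiers (UMIs, each standing for 1 captured RNA molecule). A member had at least 2000 UMIs, at most 10% mitochondrial UMIs, at least 1 UMI of the CD3 chain genes Cd3d, Cd3e and Cd3g together, and at least 2 UMIs of Cd8a and Cd8b1 together. It had no UMI of Cdh5 (endothelial cadherin), Cd4, Foxp3 (the regulatory T cell factor) or Trdc (the γδ T cell receptor constant region), at most 1 UMI of the B cell gene Cd79a and at most 2 UMIs of the cell cycle genes Mki67 and Top2a. This rule took 739 of 11273 barcodes, 470 of 6814 in the control library and 269 of 4459 in the Flcn iΔEC library.

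The study compared mice of strain C57BL/6 by the labels, crossed to C57BL/6J per its methods, lacking Flcn in endothelial cells (Flcn iΔEC) with mice labelled only as controls, at postnatal day 8. Flcn encodes folliculin, a regulator of nutrient signalling. In Flcn iΔEC mice a floxed Flcn gene was deleted by CreERT2 expressed under the Cdh5 promoter, and the labels give control and Flcn iΔEC mice the same 4 doses of 40 µg 4-hydroxytamoxifen, on postnatal day 2 and then on days 3.5, 5 and 6.5. The promoter that drives Cre is endothelial, so T cells were not its intended target. CD31+ cells from pooled mice were captured with magnetic beads, and 1 droplet 3′ library was sequenced per genotype. With 1 library per genotype no test between genotypes was possible and no p-value is given, and every interval below is an exact 95% interval that covers counting error only. No UMI of Xist, the RNA of the inactive X chromosome, was seen in the control CD8 T cells, while 256 of the 269 Flcn iΔEC CD8 T cells had one. A UMI of a Y-linked gene was seen in 360 control and 3 Flcn iΔEC CD8 T cells, so the genotype and the sex of the mice cannot be told apart in any comparison of the libraries.

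A CD8 T cell carries an αβ T cell receptor together with the CD8 coreceptor, a dimer of CD8α and CD8β that binds MHC class I. Naive cells leave the thymus with the homing receptor CCR7 and with the factors LEF1 and TCF1 (Tcf7), and circulate through lymph nodes. Effector and memory cells acquire granule proteases, perforin, interferon γ and chemokines such as CCL5, and the integrin CD103 (Itgae) is known from intraepithelial and some naive CD8 T cells.

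Promoters of Cd8a, which chose the cells, and of Nkg7, which did not and which marked them most strongly, are shown because both genes separated these cells from CD4 T cells. Each runs from 250 bases before to 50 bases after the annotated start, 5′ to 3′ on the gene's strand, from RefSeq on GRCm38.p6. The RefSeq start of Nkg7 lies downstream of the start of its GENCODE gene given further on, while both starts of Cd8a are the same base. Cd8a is at chr6:71373177-71373476 on the plus strand and Nkg7 at chr7:43436888-43437187 on the plus strand. Capitals mark every match, on either strand, to the RUNX core TGTGGT, to the looser TGNGGT that includes it, or to the T-box core TCACACC.
Cd8a: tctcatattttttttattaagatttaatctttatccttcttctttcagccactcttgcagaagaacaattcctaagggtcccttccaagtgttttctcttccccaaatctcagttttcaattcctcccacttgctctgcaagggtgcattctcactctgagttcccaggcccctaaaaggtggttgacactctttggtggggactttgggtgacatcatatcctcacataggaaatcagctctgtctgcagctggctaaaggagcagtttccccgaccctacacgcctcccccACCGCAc
Nkg7: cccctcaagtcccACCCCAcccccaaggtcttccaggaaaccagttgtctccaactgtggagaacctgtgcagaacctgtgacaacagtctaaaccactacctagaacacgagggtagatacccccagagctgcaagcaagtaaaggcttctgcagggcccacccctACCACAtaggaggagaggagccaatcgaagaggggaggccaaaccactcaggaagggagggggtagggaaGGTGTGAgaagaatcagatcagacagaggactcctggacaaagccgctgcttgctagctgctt

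The Nkg7 window held 1 TGTGGT, 2 matches to TGNGGT counting that one, and 1 TCACACC. The Cd8a window held 1 match to TGNGGT and none to TGTGGT or TCACACC. Among all 32851 promoters of this length, 16.8% held TGTGGT, 45.8% TGNGGT and 3.98% TCACACC. A match is a description of the letters and not a bound site.

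The CD8 T cells of both libraries had like depth. The median was 8333 UMIs and 2154.5 genes per cell in the control library and 8663 UMIs and 2172 genes in the Flcn iΔEC library. The mitochondrial share had a median of 4.13% and 4.10%. Summed over cells, 4140138 control and 2472366 Flcn iΔEC UMIs were available, of 64639756 and 60805779 in the whole libraries. Levels below are these sums per 1000000 UMIs of the gate (CPM), and a gene without a count could stand at up to 0.725 CPM in the control and 1.21 CPM in the Flcn iΔEC cells, the level of 3 counts. The libraries shared 6 barcodes, 2 of them in a CD8 gate.

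The coreceptor genes chose the cells and are given as a description. Both Cd8a and Cd8b1 were seen in 427 control cells (90.9%) and 237 Flcn iΔEC cells (88.1%), Cd8b1 alone in 42 and 31, and Cd8a alone in 1 and 1. The median cell had 4 and 3 UMIs of Cd8a and 10 and 9 UMIs of Cd8b1. Nearly all members thus carried the β chain RNA of the conventional coreceptor. At the edge of the rule, 16 control and 4 Flcn iΔEC cells had exactly 2 CD8 UMIs, and their Nkg7 level was 24.8 and 320 CPM. A further 52 and 42 barcodes met every other condition with exactly 1 CD8 UMI, and their Nkg7 level was 2.71 and 37.9 CPM. Of the T cells with at least 2 CD8 UMIs, the Cd4 condition removed 57 of 593 (9.61%) in the control and 16 of 326 (4.91%) in the Flcn iΔEC library, and the Trdc condition removed 24 and 27.

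CD8 T cells made up 6.90% of control barcodes (interval 6.31 to 7.53) and 6.03% of Flcn iΔEC barcodes (5.35 to 6.77). Among αβ T cells, taken as the CD8, conventional CD4 and regulatory gates together, they were 470 of 1585 in the control, 29.7% (27.4 to 32.0), and 269 of 648 in the Flcn iΔEC library, 41.5% (37.7 to 45.4). Conventional CD4 T cells numbered 1029 and 348, so there were 2.19 and 1.29 CD4 T cells per CD8 T cell. Intervals of the 2 libraries did not overlap for the CD8 share of αβ T cells, and overlapped for the share of all barcodes. The spread between mice is not known.

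**Figure D1:**
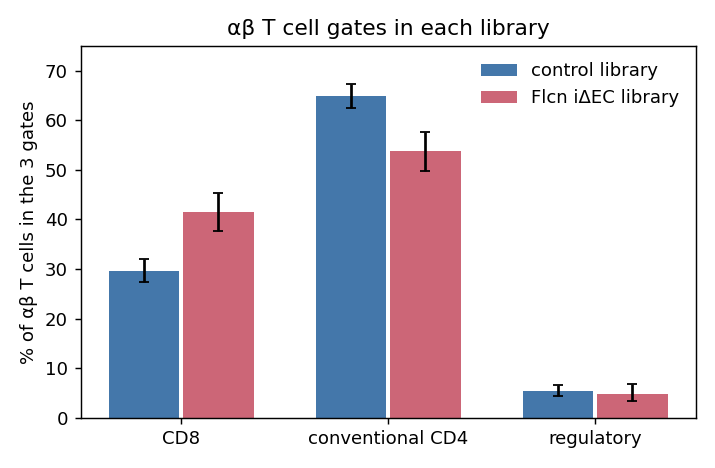
Share of αβ T cells (percent, y axis) in the CD8, conventional CD4 and regulatory gates of the control and Flcn iΔEC libraries, with exact binomial 95% intervals for counting error. CD8 T cells were 29.7% and 41.5% of αβ T cells, and CD4 T cells 64.9% and 53.7%.

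Each of 3 CD8 members alone held more than 50% of the gate's counts of 5 or more genes. A control barcode with 31520 UMIs had 966 UMIs of Cst3, 680 of Cd74, 351 of H2-Aa and 11 of Xcr1, genes of dendritic cells, beside 4 CD8 and 1 CD3 UMI. Another control barcode with 29573 UMIs had 506 UMIs of Spp1, 152 of Clu and 41 of Epcam, the last an epithelial surface gene, beside 18 CD8 and 21 CD3 UMIs. A Flcn iΔEC barcode with 25082 UMIs had 510 UMIs of Eln, 350 of Tagln, 309 of Acta2 and 72 of Myh11, genes of smooth muscle, beside 10 CD8 and 13 CD3 UMIs. None of these was among the doublets that Scrublet called, which were 142 barcodes (2.08%) in the control library, 37 (0.83%) in the Flcn iΔEC library and 0 in either CD8 gate. They were kept as members, and values that rest on them are given with and without them.

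Nkg7 and Itgae, markers that the rule did not use, were compared with CD4 T cells first. Nkg7, a granule membrane protein of cytotoxic lymphocytes at chr7:43437073-43438249 on the plus strand, stood at 526 CPM in control CD8 T cells and 5.89 CPM in control CD4 T cells, 89.3 times as high (67.1 to 121). In the Flcn iΔEC library it stood at 426 and 1.05 CPM, where the ratio of 406 (139 to 1973) rests on 3 counts in CD4 T cells. Itgae, the αE chain of the integrin CD103 at chr11:73090583-73147446 on the plus strand, stood at 65.5 CPM in CD8 T cells of each library and at 0.981 and 2.10 CPM in the CD4 T cells. Both genes separated the CD8 from the CD4 T cells in each library. A UMI of Nkg7 was seen in 89.6% of control and 87.7% of Flcn iΔEC CD8 T cells, and one of Itgae in 35.3% and 34.6%. After each cell was thinned to 2000 UMIs, the shares for Nkg7 were 60.9% (56.3 to 65.3) and 48.3% (42.2 to 54.5) in 1 draw. They were 58.4% and 50.9% averaged over all possible draws. Thinned CD4 T cells held Nkg7 in 0.680% and 0.575% of cells and thinned endothelial cells in 0 of 258 and 0 of 475, so Nkg7 was at or near 0 in cells that should lack it. Thinned regulatory T cells held Nkg7 in 5.81% and 6.45% of cells, and the γδ T and NK gate in 20 of 56 control and 18 of 36 Flcn iΔEC cells. The γδ T and NK gate took cells with a Trdc UMI. It also took cells without a CD3 UMI that had a Klrb1c or Ncr1 UMI and an Nkg7 UMI. Its Nkg7 share was thus partly set by the gate, and no conclusion is drawn from it. Itgae was seen in 11.7% (8.94 to 14.96) and 11.5% (7.97 to 15.96) of thinned CD8 T cells, in 0.194% of control and 0 of 348 Flcn iΔEC CD4 T cells, and the genotypes did not differ beyond counting error in CD8 T cells. Thinned regulatory T cells held Itgae in 2.33% and 3.23% of cells, and the γδ T and NK gate in 3.57% and 8.33% (1.75 to 22.5). That last interval overlapped the one of Flcn iΔEC CD8 T cells. At full depth the shares were 9.30% and 19.4% in regulatory T cells and 7.14% and 11.1% in the γδ T and NK gate.

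Across all genes, 6692 outside the rule were tested in the sense that they had at least 50 counts over both gates in each library, and 66 of them (0.986%) were at least 2-fold higher in CD8 than in CD4 T cells in both libraries, and 51 (0.762%) at least 2-fold lower. The ratio was taken with 1 count added. Without the 3 barcodes 65 genes were higher and 62 lower. The 12 highest, by the weaker of both libraries among genes of at least 50 CPM, were Nkg7, Ly6c2, Klrd1, Itgae, Plac8, Ccl5, Ctsw, Tmem108, Tm6sf1, AW112010, 5730508B09Rik and Cd226. They hold surface receptors, a chemokine and a lysosomal protease of cytotoxic lymphocytes.

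Ly6c2, a surface antigen carried by memory-like CD8 T cells at chr15:75108158-75111970 on the minus strand, stood at 107 CPM in control CD8 and 3.07 CPM in control CD4 T cells, a ratio of 35.1 (23.4 to 54.8). Its Flcn iΔEC ratio was 64.7 (29.4 to 177). Ly6c1 showed the opposite order, with 4.35 CPM in CD8 and 64.8 CPM in CD4 T cells of the control library and 4.85 and 79.3 CPM in the Flcn iΔEC library. These neighbouring genes are near-identical copies whose reads the counting could split between them, so their separate levels are uncertain. Klrd1, the CD94 chain of NK receptors at chr6:129591782-129598775 on the plus strand, was 35.5 times as high in control CD8 as CD4 T cells (25.1 to 51.8) and 31.9 times in the Flcn iΔEC library (19.9 to 54.2). Ccl5, a chemokine for T cells and monocytes at chr11:83525778-83530518 on the minus strand, stood at 115 and 98.3 CPM in CD8 T cells and 5.40 and 8.03 CPM in CD4 T cells. Ctsw, the protease cathepsin W, was 7.32 and 7.08 times as high in CD8 T cells, and Cd226, an activating receptor, 4.34 and 3.45 times. Plac8 stood at 186 and 283 CPM in CD8 and 8.34 and 14.7 CPM in CD4 T cells, and at 1263 and 1703 CPM in B cells, so it marked CD8 against CD4 T cells and not CD8 T cells among all lymphocytes. The γδ T and NK gate held Ctsw at 219 and 216 CPM against 201 and 213 CPM in CD8 T cells, and Ccl5 at 1781 and 2096 CPM.

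Further list members were higher in CD8 T cells. Ccr9, the receptor for the gut and thymic chemokine CCL25 at chr9:123678439-123784330 on the plus strand, was 9.77 (7.14 to 13.6) and 11.3 (5.46 to 27.1) times as high. Cd160, a receptor of cytotoxic lymphocytes, was 11.5 and 7.79 times as high but stood at 221 and 97.5 CPM in the γδ T and NK gate against 73.2 and 48.9 CPM in CD8 T cells. Cxcr3, the receptor for interferon-induced chemokines, was 15.4 and 13.0 times as high as in CD4 T cells. At full depth it was seen in 21.4% and 27.8% of the γδ T and NK gate against 10.4% and 10.4% of CD8 T cells. Runx3, the factor that represses Cd4 in the CD8 lineage, was 2.34 (2.06 to 2.65) and 1.67 (1.43 to 1.96) times as high. Runx3 was past 2-fold in the control library only, and the difference between the libraries was not tested. Ikzf2, which encodes Helios and is better known from regulatory T cells, stood at 76.6 and 85.7 CPM in CD8 T cells against 28.6 and 41.6 CPM in conventional CD4 T cells. At full depth it was seen in 33.2% and 33.1% of CD8 T cells. The shares were higher in regulatory T cells (82.6% and 83.9%) and in the γδ T and NK gate (71.4% and 77.8%).

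On the lower side, the 12 lowest genes were Ly6c1, Cd40lg, Ass1, Pdlim4, Tspan32, Itm2a, Izumo1r, Tesc, Gpr183, Ckb, Tmem64 and Faah. Cd40lg, the helper ligand for B cells and dendritic cells, stood at 3.62 and 3.64 CPM in CD8 and 52.9 and 54.1 CPM in CD4 T cells. Zbtb7b, which encodes the CD4 lineage factor ThPOK, stood at 2.42 and 0.404 CPM in CD8 and 34.7 and 12.2 CPM in CD4 T cells. Izumo1r, a folate receptor family gene of regulatory T cells, was 0.322 and 0.214 times as high in CD8 as in CD4 T cells, and Gpr183, an oxysterol receptor, 0.356 and 0.213 times.

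**Figure D2:**
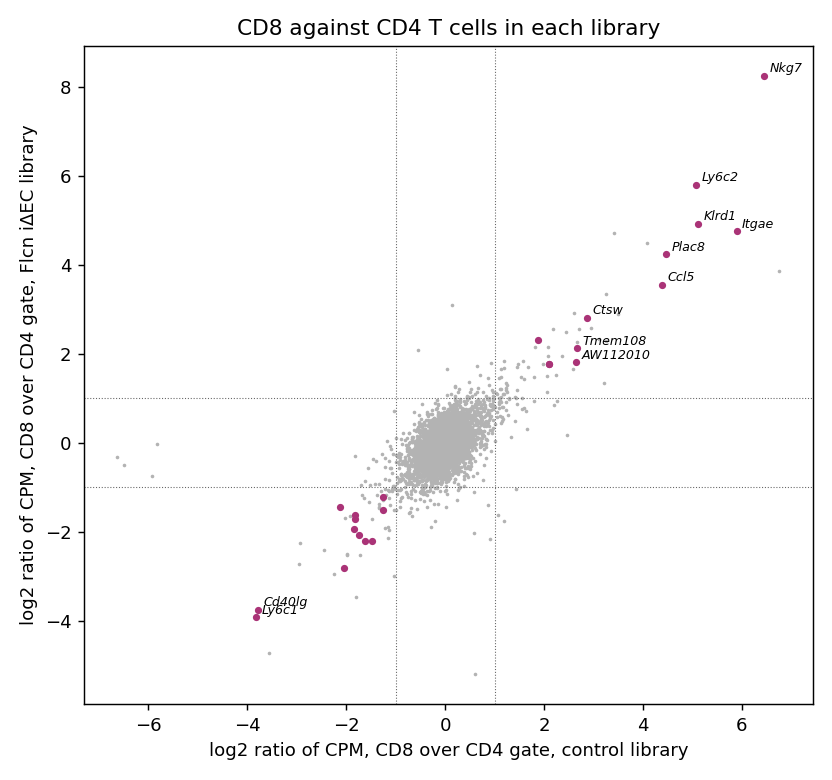
The log2 ratio of CPM in CD8 over CD4 T cells in the control library (x axis) and the Flcn iΔEC library (y axis) for genes with enough counts other than Cd8a, Cd8b1 and Cd4 (grey), with the 12 highest and 12 lowest named genes in purple and dotted lines at 2-fold. Nkg7, Ly6c2, Klrd1 and Itgae stand highest among the purple points, and Ly6c1 and Cd40lg lowest, in both libraries.

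By list, against 0.986% of all genes higher and 0.762% lower, the CD8 lineage genes past 2-fold higher than in CD4 T cells were Nkg7, Itgae, Xcl1 and Ctsw, among 5 with enough counts of 8 outside the rule. Nkg7, Itgae and Xcl1 were low in CD4 T cells and reached 50 counts mainly through the CD8 gate, so that count is a description and no support. Among 7 of 15 cytotoxic genes with enough counts, Ifng, Ccl4 and Ccl5 were higher. Of 8 memory-like genes Il2rb and Ly6c2 were higher and Ly6c1 lower, and of 4 NK receptor genes Klrd1 and Cd160 were higher and Fcer1g lower. None of 15 naive and lymph node homing genes was past 2-fold either way, and 3 of 6 CD4 lineage genes (Cd40lg, Tnfrsf4 and St8sia6) were lower. Ifng, Ccl5, Ly6c2, Klrd1 and Cd160 were also low in CD4 T cells, and Cd40lg in CD8 T cells. They too reached 50 counts mainly through the gate where they were high. The cytotoxic, memory-like, NK receptor and CD4 lineage counts are therefore a description and no support either.

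Naive genes were seen in unequal shares of CD8 T cells. At full depth Lef1 was seen in 90.9% and 90.7% of cells, Tcf7 in 87.2% and 82.2% and Ccr7 in 78.3% and 73.6%, but Il7r, the interleukin 7 receptor, in 44.5% and 44.2% and Dapl1 in 32.1% and 38.3%. B cells held Lef1 in 16.4% and 12.9% and Tcf7 in 3.04% and 2.54% of cells, but Ccr7, which B cells also use for homing, in 85.8% and 81.1%. Granule protease genes were at or near the level of 3 counts. Gzma, a granule protease, stood at 1.21 and 3.24 CPM, Gzmb at 0.483 and 1.21 CPM, and Gzmk had no count in either library. Prf1, the gene of perforin, stood at 6.76 and 7.28 CPM and Tbx21, the gene of T-bet, at 5.56 and 4.04 CPM, both low but above that level, while Ccl5 and Ifng were well above it. No count was seen of the late effector gene Klrg1. In the γδ T and NK gate of the same libraries Gzma stood at 35.1 and 198 CPM, so a higher level was detectable at this depth. The thymic recombinase genes Rag1 and Rag2 had at most 0.242 CPM, and Dntt, which adds bases at receptor joints, had no count.

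**Figure D3:**
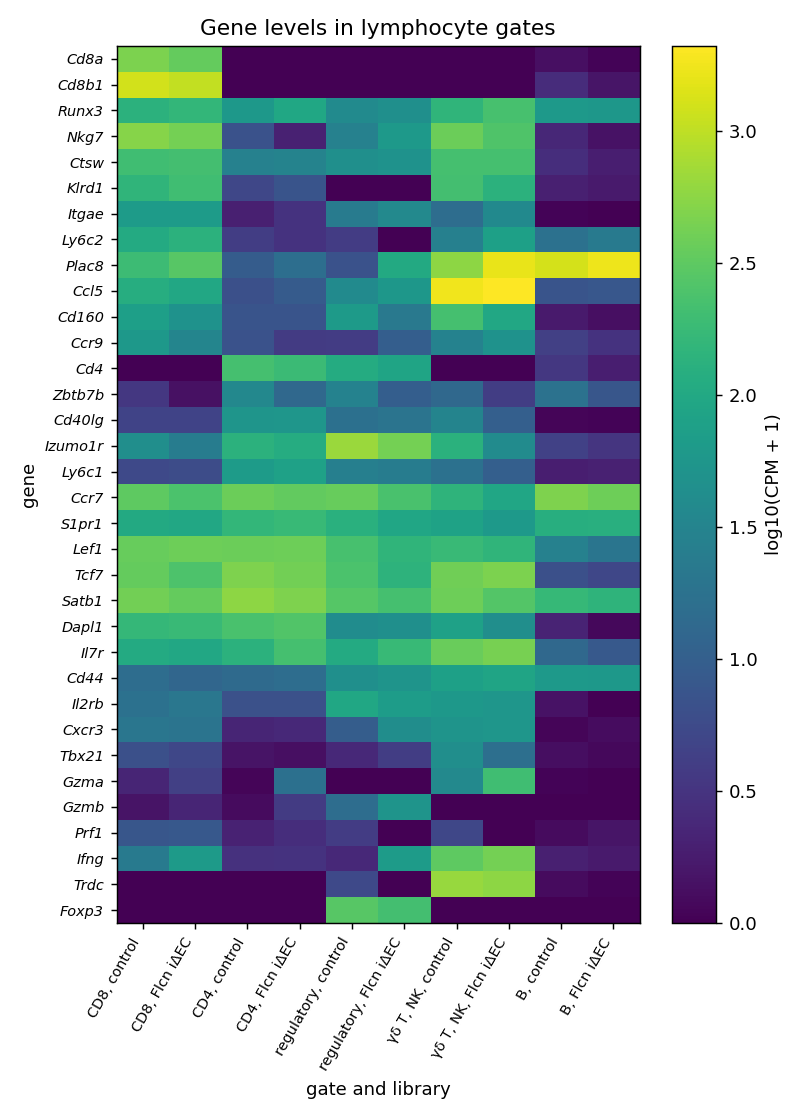
Level of 34 genes (rows) in the CD8, conventional CD4, regulatory, γδ T and NK, and B cell gates of each library (columns), with colour giving log10(CPM + 1). Nkg7 reads 526 and 426 CPM in CD8 T cells against 5.89 and 1.05 CPM in CD4 T cells, while Gzma and Gzmb lie at the dark end in CD8 T cells.

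UMIs of genes listed for other cell types were widespread at low counts, and cells without them numbered 69 of 470 and 39 of 269. The lists include Ighm, seen at full depth in 81.1% and 78.1% of CD8 T cells, and Pecam1, seen in 51.3% and 42.4%. Whether these UMIs came from the T cells themselves was not tested. The 10 B cell genes, with much of their sum from Ighm, came to 543 CPM in the control and 302 CPM in the Flcn iΔEC CD8 T cells. They came to 382 and 301 CPM without the 3 barcodes. The 14 macrophage and dendritic genes summed to 424 and 80.5 CPM, and to 108 and 76.4 CPM without them. The 8 fibroblast and smooth muscle genes summed to 8.45 and 160 CPM, and to 8.34 and 6.54 CPM without them. The 8 endothelial genes summed to 105 and 93.4 CPM, mostly Pecam1 (CD31 itself, used for the capture) at 92.5 and 71.6 CPM, and the 6 erythroid genes to 53.1 and 95.1 CPM. Hbb-bs, a β-globin gene, had 138 and 165 counts and was seen in 24.9% and 43.5% of CD8 T cells, beside 24.9% and 42.7% of B cells. Other defining markers were at lower counts, with Lyz2 at 0 and 1, Csf1r at 1 and 0, Kdr at 6 and 2 and Alas2 at 0 in both.

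The cells differed among themselves in Nkg7 and Ccl5. At full depth 371 of 470 control cells (78.9%) and 199 of 269 Flcn iΔEC cells (74.0%) had at least 2 UMIs of both genes summed, and 46 and 32 cells had none. Thinned to 2000 UMIs, 33.2% (28.9 to 37.7) and 21.2% (16.5 to 26.6) had at least 2, and averaged over all draws 31.5% and 22.99%. The same thinned share was 0.187% and 0.159% in B cells, 0.388% and 0 of 475 in endothelial cells, and 29 of 56 and 18 of 36 cells in the γδ T and NK gate. That last share was partly set by the gate, which took some of its cells by an Nkg7 UMI.

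Genes that went with Nkg7 and Ccl5 were read from cells with at least 2 UMIs against cells with none, at full depth and without the 3 barcodes, 370 against 46 control and 198 against 32 Flcn iΔEC cells. The median cell with the UMIs was deeper (8747 against 7047 UMIs in the control and 9486 against 6318 in the Flcn iΔEC library), so depth moved with this split. Past 2-fold higher in both libraries were 11 of 4043 genes (0.272%) and past 2-fold lower 11 (0.272%). The higher genes that reached 50 CPM were Ly6c2, Ctsw, Cd160, Cd7, AW112010 and Tmem256, and the lower ones Wipi2, Rcbtb2, Ssbp2, Chd3 and Brwd1. Wipi2, an autophagy gene, was 0.421 and 0.405 times as high. Ly6c2 was 8.21 (3.49 to 25.4) and 16.2 (4.45 to 134.5) times as high, and Ctsw 2.51 (1.74 to 3.78) and 2.68 (1.70 to 4.49) times. Ccr9 was lower in the cells with the UMIs, at 0.528 (0.361 to 0.796) and 0.224 (0.133 to 0.387) times.

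Ccl5 alone marked a smaller set. A Ccl5 UMI was seen in 18.3% and 14.1% of CD8 T cells at full depth, and after thinning in 47 of 468 control cells and 16 of 268 Flcn iΔEC cells other than the 3 barcodes. The median depth was 9099 against 8231 UMIs in the control and 10277.5 against 8537.5 in the Flcn iΔEC library. Past 2-fold higher in both were 14 of 4429 genes (0.316%) and lower 6 (0.135%). Those higher at 50 CPM or more were Ly6c2, Klrd1, Ifng, AW112010, Ctla2a and Ifngr1, and Dusp10, a MAP kinase phosphatase gene, was lower.

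Ly6c2 was 5.98 (4.93 to 7.25) and 4.87 (3.78 to 6.23) times as high in the Ccl5 cells as in the rest. Ifng, the gene of interferon γ, was 5.02 (3.19 to 7.79) and 3.53 (2.32 to 5.22) times as high, and Ctla2a, a protease inhibitor gene, 9.79 (6.94 to 13.8) and 4.01 (2.22 to 6.91) times. Cxcr3 was 3.27 and 6.03 times as high and Eomes, a T-box factor of memory CD8 T cells, 2.33 and 4.01 times. Ly6c2, Cxcr3 and Eomes are known from memory-like CD8 T cells, and each was higher in the Ccl5 cells of both libraries. Ccr7 was 0.763 (0.623 to 0.926) and 0.965 (0.685 to 1.33) times as high.

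Ccr9 was rarely seen in the cells with Ccl5. It had 2 counts in the 47 control Ccl5 cells against 233 in the other 421, a ratio of 0.0689 (0.0083 to 0.252), and 0 against 78 counts among Flcn iΔEC cells, with an upper bound of 0.626. Split the other way, the 50 control and 17 Flcn iΔEC cells with a thinned Ccr9 UMI held 2 and 0 counts of Ccl5, against 475 and 242 in the rest, and Ly6c2 was 0.184 (0.0789 to 0.366) and 0.103 (0.0125 to 0.376) times as high in them. Sox4, a factor of thymocytes and recent thymic emigrants, was 2.28 (1.83 to 2.82) and 1.57 (1.08 to 2.21) times as high in the Ccr9 cells. Past 2-fold in both libraries were 6 of 4429 genes higher (0.135%) and 6 lower (0.135%). The median depth of the Ccr9 cells was lower than that of the rest, at 7296 against 8472.5 UMIs in the control and 6742 against 8824 in the Flcn iΔEC library.

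**Figure D4:**
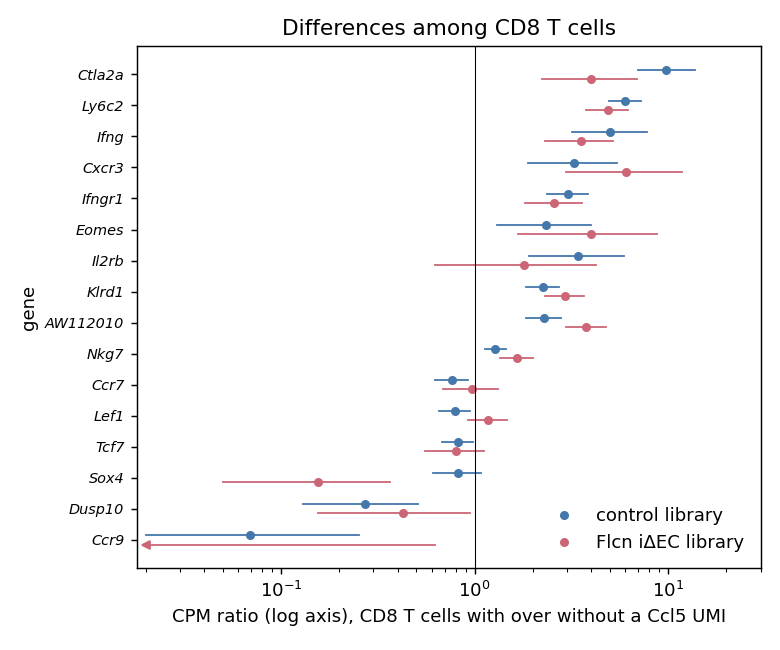
Ratio of CPM in CD8 T cells with a thinned Ccl5 UMI over those without (log axis), per gene and library, with exact 95% intervals for counting error and the 3 barcodes left out. Ly6c2, Ifng and Ctla2a lie above 1 and Ccr9 below 1 in both libraries, with the Flcn iΔEC value of Ccr9, which is 0, and the control lower bound drawn at the axis end of 0.02.

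Itgae marked cells with less Ly6c2. In the 55 control and 31 Flcn iΔEC cells with a thinned Itgae UMI, Ly6c2 was 0.607 (0.413 to 0.867) and 0.349 (0.189 to 0.594) times as high as in the rest. Ccr7 was 1.39 (1.19 to 1.62) and 1.62 (1.295 to 2.01) times as high in the Itgae cells and Ikzf2 1.57 (1.15 to 2.11) and 2.24 (1.58 to 3.13) times. Past 2-fold in both libraries were 2 genes higher (0.0452%) and 4 lower (0.0903%) of 4429, none of which reached 50 CPM. In the 47 control and 32 Flcn iΔEC cells with a thinned Ly6c2 UMI, Ccl5 was 4.56 (3.76 to 5.52) and 4.12 (3.16 to 5.36) times as high, and 3 genes were past 2-fold higher (0.0677%) and 3 lower (0.0677%) in both libraries. In the 51 and 26 cells with a thinned Ikzf2 UMI, 3 genes were past 2-fold higher (0.0677%) and 4 lower (0.0903%), and the 1 at 50 CPM or more was Ctla4, an inhibitory receptor known from regulatory T cells, at 3.64 (2.26 to 5.75) and 2.64 (1.53 to 4.39) times.

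Between the genotypes, 7292 genes had at least 50 counts over the CD8 T cells of both libraries. Of these, 56 (0.768%) were at least 2-fold higher and 62 (0.85%) at least 2-fold lower in the Flcn iΔEC library. Without the 3 barcodes the counts were 46 of 7237 (0.636%) and 57 (0.788%), and for 11 of the 56 and 11 of the 62 a single cell held more than 50% of the counts. In CD4 T cells 104 of 8383 genes (1.24%) were past 2-fold higher and 113 (1.35%) lower. The erythroid genes summed to 3560 CPM in the control and 109 CPM in the Flcn iΔEC CD4 gate. The neutrophil genes summed to 239 and 0.698 CPM there. All 5 erythroid and all 3 neutrophil genes tested were called lower in the CD4 gate. The CD4 gates were not screened for barcodes that held most counts of a gene, so the CD4 counts of calls carry this limit. The CD4 ratios given below come from the same 2 libraries and are no separate replicate. The median log2 ratio over all genes was −0.07 in CD8 and −0.04 in CD4 T cells.

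Heat shock genes (Hspa1a, Hspa1b, Hsp90aa1 and Dnajb1) held 4 of the 10 highest ratios among genes of at least 100 CPM in 1 library, beside Acta2, Tagln, Eln, Gm8797, Socs3 and Ifi27l2a. Hspa1a, an inducible HSP70 gene, had a level of 49.0 CPM in the control CD8 T cells and of 1186 CPM in those of Flcn iΔEC mice, 24.2 times as high (21.0 to 28.0), beside 46.4 times in CD4 T cells and 50.5 times in B cells. A thinned Hspa1a UMI was seen in 8.94% of control and 60.2% of Flcn iΔEC CD8 T cells. Hspa1b, its near-identical neighbour whose reads could be split with it, stood at 41.1 and 446 CPM, 10.9 times as high (9.24 to 12.8). Hsp90aa1, an inducible HSP90 gene, stood at 754 and 1723 CPM, a ratio of 2.28 (2.18 to 2.39), and Hsph1 at 43.0 and 95.5 CPM, a ratio of 2.22. Of 10 heat shock genes tested, Hspa1a, Hspa1b, Hsp90aa1 and Hsph1 were past 2-fold higher and none lower, with a median log2 ratio of 0.79, against 0.768% of all genes called higher and an all-gene median of −0.07. Dnajb1 stood at 109 and 218 CPM, just under 2-fold with 1 count added. Gm8797 stood at 15.2 and 173 CPM, 11.4 times as high beside 10.7 times in CD4 T cells.

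Several interferon-stimulated genes were also higher. Rtp4 stood at 10.1 and 49.3 CPM, 4.86 times as high (3.40 to 7.08), beside 2.74 times in CD4 T cells. Irf7, the factor that amplifies type I interferon, stood at 14.7 and 39.6 CPM, 2.69 times as high (1.93 to 3.77), beside 2.06 times. Ifi27l2a stood at 137 and 307 CPM, 2.25 times as high (2.01 to 2.51), beside 1.54 times. Of 12 interferon-stimulated genes tested, Rtp4, Irf7, Ifi27l2a and Isg20 were past 2-fold higher and none lower, against 0.768% and 0.85% of all genes, 11 lay above 1, and the median log2 ratio was 0.64 against −0.07 for all genes. Isg15, a ubiquitin-like protein, stood at 51.7 and 98.3 CPM, a ratio of 1.90 (1.58 to 2.30), beside 1.21 in CD4 T cells. Ifi203 stood at 112 and 70.0 CPM, a ratio of 0.627. The difference between CD8 and CD4 T cells in these ratios was not tested.

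Cytokine genes held 1 further call. Ifng had a level of 22.0 CPM in the control CD8 T cells and of 63.9 CPM in those of Flcn iΔEC mice, 2.91 times as high (2.23 to 3.81), from 91 counts in 31 cells and 158 counts in 31 cells, with at most 12 and 25 counts in 1 cell. In CD4 T cells Ifng stood at 1.96 and 2.10 CPM. The Ifng counts thus came from a small share of the CD8 T cells, 6.596% and 11.5%. Socs3, a feedback inhibitor of cytokine receptors, stood at 54.3 and 141 CPM, 2.60 times as high (2.19 to 3.09), beside 3.53 times in CD4 T cells. Of 8 cytotoxic and effector cytokine genes tested only Ifng was past 2-fold, with a list median of −0.11, and Ccl4 joined it without the 3 barcodes. The list median turned to 1.38 when cells with UMIs of genes listed for other cell types were left out, which left 69 and 39 cells.

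Nkg7, Ccl5, Cd160, Klrd1, Ly6c2 and Itgae, which were higher in CD8 than in CD4 T cells as Ifng was, were each within 2-fold between the genotypes. Nkg7 was 0.81 times as high in the Flcn iΔEC as in the control CD8 T cells (0.751 to 0.872), Ccl5 0.851 times (0.726 to 0.996) and Cd160 0.669 times (0.537 to 0.828). Klrd1 was 1.35 times as high (1.199 to 1.52), Ly6c2 1.26 times (1.09 to 1.46) and Itgae 1.001 times (0.819 to 1.22). These ratios lie on both sides of 1. Ccr9 stood at 57.5 and 31.5 CPM, a ratio of 0.549 (0.419 to 0.712), and was seen in 31.7% and 16.7% of CD8 T cells at full depth. Its ratio of 0.475 in CD4 T cells rests on few counts, as it was seen there in 3.11% and 1.72% of cells.

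Among naive and homing genes, 0 of 15 tested were past 2-fold and the median log2 ratio was −0.08, close to the −0.07 of all genes, of which 0.768% were called higher and 0.85% lower, so the count sets these genes apart in neither direction. Ccr7 was 0.759 times as high (0.687 to 0.837) and Tcf7 0.737 times (0.670 to 0.811), beside 0.891 and 0.84 times in CD4 T cells. Lef1 was 1.09 times as high. In 1 draw of thinned cells a Ccr7 UMI was seen in 198 of the 470 control cells, 42.1% (37.6 to 46.7), and in 84 of the 269 Flcn iΔEC cells, 31.2% (25.7 to 37.1), and the shares were 41.2% and 33.5% averaged over all draws.

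None of 17 T cell receptor complex genes, 10 MHC class I presentation genes, 5 recent thymic emigrant genes or 5 chemokine receptor genes was past 2-fold, with median log2 ratios of −0.27, −0.10, 0.17 and −0.40. Over all genes 0.768% were called higher and 0.85% lower, and at those shares lists of this size would hold few or no calls. The counts of calls thus set none of the lists apart. In the same order, 3 of 17, 3 of 10, 5 of 5 and 0 of 5 genes were higher in the Flcn iΔEC library by any margin. The share over all genes was 40.1%, with a median log2 ratio of −0.07. Whether these lists differed from other genes was not tested. Igfbp4, an insulin-like growth factor binding protein of naive T cells, stood at 170 and 279 CPM, a ratio of 1.65 (1.48 to 1.83), beside 1.16 in CD4 T cells. Flcn itself stood at 9.66 and 12.5 CPM in CD8 T cells, from 40 and 31 counts, a ratio of 1.30 (0.785 to 2.13). Both levels lay above the 3-count levels of 0.725 and 1.21 CPM, and the Flcn iΔEC level was not the lower one. None of 6 tested folliculin and MiT/TFE genes was past 2-fold, a count that the same all-gene shares do not set apart.

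On the lower side, the 10 genes with the lowest ratios at 100 CPM or more were Spp1, H2-Aa, Cd74, Cst3, Gm26802, Adgre5, S100a10, S100a11, Tagln2 and Ifi203. Only Spp1, H2-Aa, Cd74 and Cst3 were past 2-fold, and these are genes that the 2 control barcodes held. Without them Spp1 had 9 and 2 counts, Cd74 was 0.652 times as high (0.498 to 0.847), Cst3 0.788 times (0.630 to 0.981) and H2-Aa 0.297 times. On the higher side Acta2, Tagln and Eln came from the Flcn iΔEC barcode, and were 1.33, 0.667 and 1.03 times as high without it. The other 6 were less than 2-fold lower, with Adgre5, the CD97 adhesion receptor, at 0.57 and S100a10, a calcium-binding family gene, at 0.60 times.

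**Figure D5:**
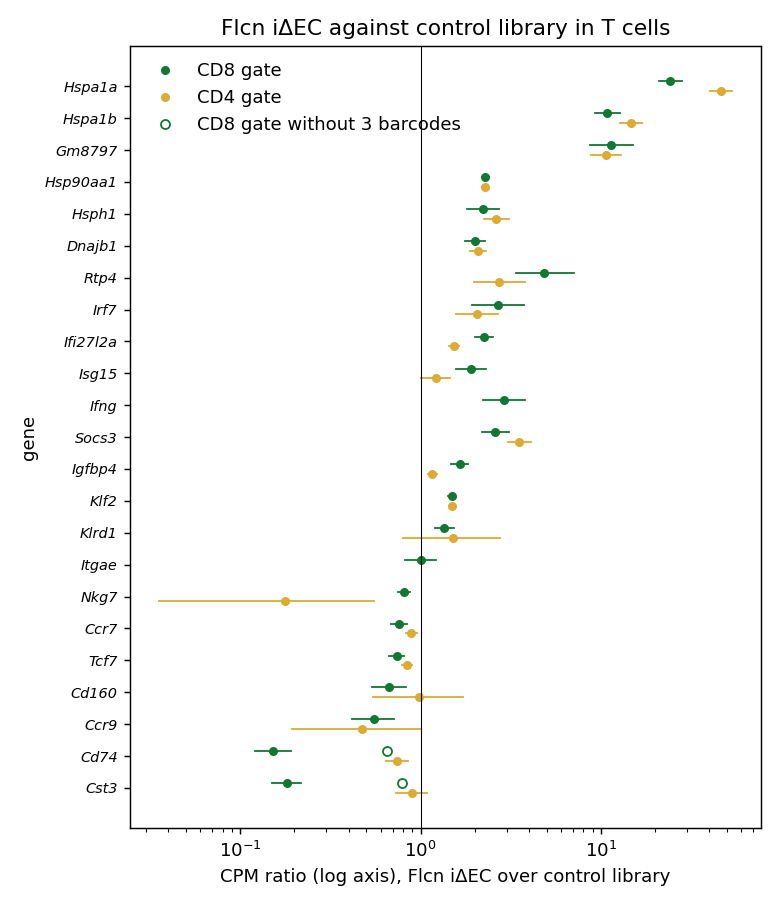
Ratio of CPM in Flcn iΔEC over control cells (log axis) for named genes in CD8 T cells, with exact 95% intervals for counting error, beside CD4 T cells where at least 50 counts were summed; open circles leave out the 3 barcodes. Hspa1a stands at 24.2 and Rtp4 at 4.86, while Cd74 and Cst3 lie nearer 1 without those barcodes.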

How the data were processed

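The deposited values were raw UMI counts per gene and barcode, which the authors made with Cell Ranger 3.0 (3.0.1 per the file headers) from Chromium 3′ v3 libraries; the build named in the submitters' notes is mm10. They were not normalized. Of 28692 genes, 98.8% had a GRCm38 position. The software was Python 3.11.15, pandas 2.3.3, scipy 1.17.1 and numpy 2.4.6. Doublets were called with Scrublet in scanpy 1.11.5 and kept, and figures drawn with matplotlib 3.10.9. UMIs were summed per gate and library and scaled to CPM. Genes with at least 50 summed counts were compared by the log2 ratio with 1 count added, called past 2-fold. Intervals were Poisson, conditional binomial for ratios, and Clopper-Pearson for shares. Cells were thinned to 2000 UMIs in 1 seeded draw. The 12 strongest genes each way at 50 CPM (CD8 against CD4) and the 10 at 100 CPM (genotypes, sex-linked genes left out), with list members, were named. Members and lists were chosen with earlier results of these data known. The calling step was tested on simulated data. In all, 15 alternative settings were computed, and 1 more, leaving out the 3 barcodes, was added after seeing the data. Some items are not reported here.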

Additional observations from a re-analysis of the deposited data

Results flagged for a closer look

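Epcam, an epithelial surface gene, differed in opposite directions between the genotypes in CD8 and in CD4 T cells. Its log2 ratio of Flcn iΔEC over control was −1.31 in CD8 T cells, from 53 control and 12 Flcn iΔEC counts, and 1.43 in CD4 T cells, from 35 and 33 counts. A single control CD8 barcode held 41 of the 53 counts, and without the 3 barcodes the CD8 value was 0.74 from 12 control counts. The difference between the gates was not tested.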

How the results depend on the processing

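Of the values recomputed under 15 other settings, 112 stayed within their interval or within 1.5 times the count and 34 moved, and all 14 stayed without the 3 barcodes. Values are control then Flcn iΔEC. The share of all barcodes was 7.66% and 6.97% with at least 1 CD8 UMI, 6.27% and 5.32% with a UMI of each CD8 gene, 5.94% and 5.20% with up to 5% mitochondrial UMIs, and 1.01% and 0.875% after removing cells with UMIs of genes listed for other cell types. That removal left 69 and 39 cells, and also gave 25% and 35.5% of αβ T cells. It gave 17 genes higher and 24 lower in Flcn iΔEC, 13 higher and 5 lower in CD8 than in CD4 T cells, an Nkg7 and Ccl5 share of 26.1% and 28.2%, an Itgae share of 7.69% in Flcn iΔEC, and a cytotoxic list median of 1.38, opposite in sign to −0.11. With at least 20 summed counts, 179 genes were higher and 211 lower in Flcn iΔEC, and 114 higher and 93 lower in CD8 than in CD4 T cells; with at least 200, 15, 11, 20 and 16. With 5 counts added, 29 genes were lower in Flcn iΔEC. The share with at least 2 UMIs of Nkg7 and Ccl5 was 28.4% in the control with at least 1 CD8 UMI, 26.6% in Flcn iΔEC with a UMI of each CD8 gene, and 78.9% and 74.0% without thinning. The Itgae share was 6.98% in Flcn iΔEC with at least 4 CD8 UMIs and 35.3% and 34.6% without thinning. The cause of these moves was not tested beyond what the smaller number of cells or genes shows. No paired analysis was possible because each genotype had 1 library, and for the same reason no replicate could be left out. The splits by 1 gene rest on 16 to 55 cells per library, the least precise values here.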

Other observations

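T cell receptor variable gene reads were sparse. Of 128 Trav genes, 105 UMIs were seen in 83 control CD8 T cells (17.7%) and 78 UMIs in 55 Flcn iΔEC CD8 T cells (20.4%). Of 35 Trbv genes, 107 UMIs were seen in 92 control cells and 64 UMIs in 60 Flcn iΔEC cells, and Trbv12-2 held 27 and 18 of them (25.2% and 28.1%).

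Ighm, the immunoglobulin heavy chain gene of IgM, had a level of 241 CPM in the control CD8 T cells and of 211 CPM in those of Flcn iΔEC mice, against 146 and 117 CPM in CD4 T cells, a ratio of 1.65 (1.51 to 1.79) and 1.81. After thinning, an Ighm UMI was seen in 38.9% and 34.6% of CD8 T cells, 24.3% and 21.8% of CD4 T cells and 2.71% and 1.05% of endothelial cells, while a UMI of the light chain gene Igkc was seen in 4.04% and 1.86% of CD8 T cells.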
